A study of Mus musculus with 20 samples.

Results

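A set of 10 genes for actin-binding, calcium-binding and cytoskeletal proteins was followed through bulk RNA sequencing of dural CNS-associated macrophages (dCAMs). These are the macrophages of the dura mater, the outermost of the membranes around the brain. The 10 genes, Lsp1, Tmsb4x, Tmsb10, S100a4, S100a6, S100a10, S100a11, Crip1, Vim and Lgals3, were taken by symbol from the 33243 genes of the count table, and all 10 were among the 16632 genes with a total count of at least 10. They were chosen by measured values of these libraries, namely lower counts in cells that carried the tdT label than in cells that did not. Differences between tdT+ and tdT- cells are therefore given as a description without a test.

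All 10 mice were Ccr2creERT2/+ R26tdT/tdT animals and first received BLZ945, an inhibitor of the CSF1 receptor that depletes macrophages, at 200 mg/kg for 7 days. The last of these days, and days 2 and 4 after it, each brought an injection of 2 mg tamoxifen, so that cells with an active Ccr2 promoter at that time, and their progeny, carried tdT. After 8 weeks, 5 mice received LPS, a bacterial wall component, at 2.5 mg/kg and 5 control mice (CTL) received PBS, and the dura was taken 12 hours later. The mice were 10 ± 3 weeks old at the first dose of BLZ945, and the letters F and M in the sample titles marked 3 and 2 of the CTL mice and 2 and 3 of the LPS mice. From each mouse, tdT+ and tdT- cells were sorted from the same gate (CD45int CD11b+ CD206int-high) and gave 1 library each, so that 4 groups of 5 libraries were available. The tdT- libraries held every cell of that gate without the label, whatever its origin, and no group without BLZ945 was part of this comparison.

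Beta-thymosins bind actin monomers and hold them back from filaments. S100 proteins are small dimers, most of them calcium-binding, that attach to annexins, myosin and other partners. Vimentin builds intermediate filaments, and galectin-3 binds sugars on glycoproteins. Genes of this kind are well expressed in monocytes and in migrating leukocytes, and several of them are also expressed in dendritic cells and fibroblasts.

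The cell type was checked first. The macrophage genes Mrc1, which encodes CD206, Csf1r and Adgre1 were detected in all 20 libraries, with group means of 649.6 to 2812 CPM (counts scaled to a library of 1e+06 with TMM factors), 1362 to 5992 CPM and 996 to 2042 CPM, respectively. Total counts ran from 6017650 to 18925908 per library. The LPS libraries held 12073566 or more and the CTL libraries at most 12208203 counts, and the tdT- CTL libraries held fewer genes with at least 10 counts, 6671 to 9365, than the tdT+ CTL libraries, 10024 to 11032. The tdT- LPS libraries held 10930 to 11812 such genes and the tdT+ LPS libraries 11250 to 11987. Depth thus went largely with treatment, while detection set the tdT- CTL libraries apart from all other groups. Their part in the LPS effect, and in the differences between tdT+ and tdT- cells of CTL mice, was not tested. Markers of other cells did not have the same level in the sorted groups. The 9 tested dendritic cell markers summed to 727 to 3537 CPM in the tdT- CTL libraries and to 115 to 207 CPM in the tdT+ CTL libraries. They summed to 306 to 845 CPM in the tdT- LPS libraries and to 28.3 to 63.8 CPM in the tdT+ LPS libraries. Cd209a, with 1228 CPM on average in tdT- CTL and 44.2 CPM in tdT+ CTL, held most of the first sum. Kmo, on the same list, went the other way, with 28.9 CPM in tdT- CTL and 87.7 CPM in tdT+ CTL. Clec9a was at or under 3 counts in 18 of 20 libraries. The 10 fibroblast markers summed to 5839 CPM in the tdT- CTL library of mouse 179, to 579.6 to 1688 CPM in the other tdT- CTL libraries and to 611 to 921 CPM in tdT+ CTL. With LPS they summed to 179 to 713 CPM in tdT- and to 274 to 661 CPM in tdT+ libraries. The 14 macrophage markers summed to 15150 to 28356 CPM in tdT- CTL and to 30798 to 36014 CPM in tdT+ CTL. With LPS these sums were 11819 to 15486 CPM in tdT- and 13850.1 to 20106 CPM in tdT+. The 10 monocyte markers summed to 1719.6 to 2520.2 CPM in tdT- CTL and to 1988 to 4345 CPM in tdT+ CTL, mostly from F13a1, whereas Plac8 averaged 99.1 CPM in tdT- CTL and 0.251 CPM in tdT+ CTL. With LPS the monocyte markers summed to 3147 to 5106 CPM in tdT- and to 3453 to 4408 CPM in tdT+ libraries. The neutrophil list summed to 104 to 402 CPM in tdT- CTL and to 510.5 to 681 CPM in tdT+ CTL, with Ly6g at or under 3 counts in 19 of 20 libraries. Lymphocyte markers summed to at most 20.5, endothelial markers to at most 74.2, and mast and red cell markers to at most 766 CPM in a library. In bulk libraries, fewer cells of a type and less RNA per cell cannot be told apart.

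**Figure D1:**
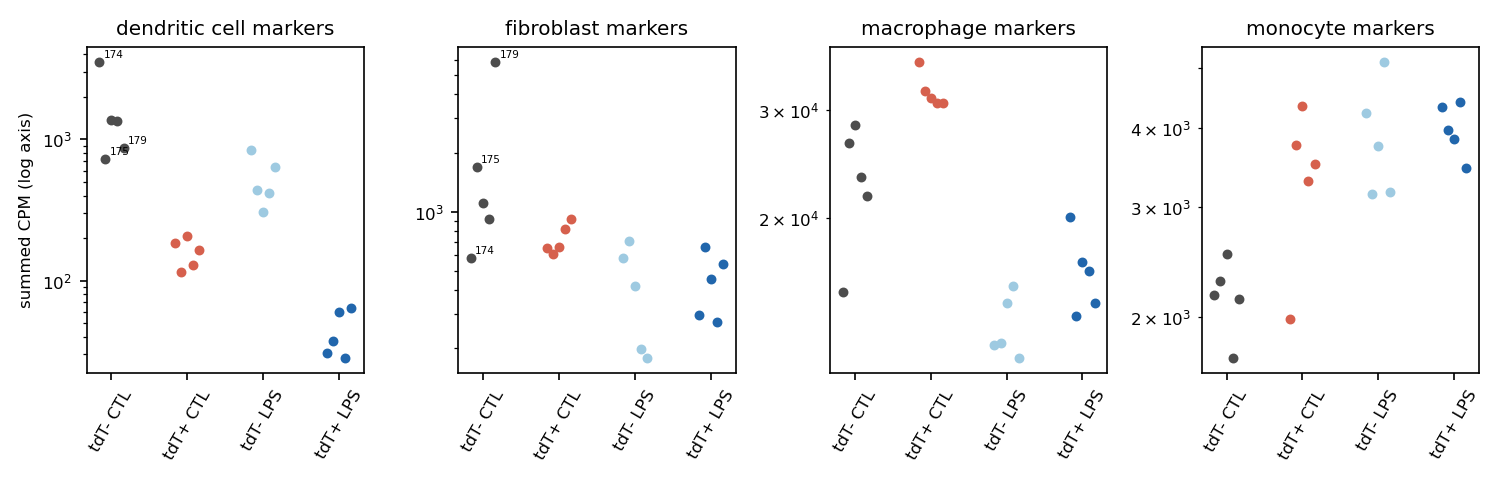
Summed CPM (log axis) of the dendritic cell, fibroblast, macrophage and monocyte marker lists in the 20 libraries, 1 point per library and 5 per group. In the tdT- CTL group the libraries of mice 174, 175 and 179 are labelled in the first and second panels. The dendritic cell sums of tdT- libraries lie above all tdT+ sums of the same treatment, and the fibroblast sum of the tdT- CTL library of mouse 179 (5839 CPM) lies apart from the others.

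Promoter sequences were available from RefSeq (GRCm38.p6) for 8 of the 10 genes. The 250 bases before the start of transcription are shown for the neighbours S100a4 and S100a6, which had the largest tdT+ to tdT- differences in CTL mice, for Tmsb4x, the most abundant member, and for Vim, whose level per mouse did not pass the test with LPS. Capitals mark matches on either strand to 5 motifs, namely the TATA box, the GC box, the AP-1 motif, the CArG box and the kappaB motif, and overlapping kappaB matches run together. The letters searched for the TATA box were TATAAA. Those searched for the GC box were GGGCGG, and the AP-1 motif was read as TGANTCA.
S100a4 (chr3:90603520-90603769, plus strand): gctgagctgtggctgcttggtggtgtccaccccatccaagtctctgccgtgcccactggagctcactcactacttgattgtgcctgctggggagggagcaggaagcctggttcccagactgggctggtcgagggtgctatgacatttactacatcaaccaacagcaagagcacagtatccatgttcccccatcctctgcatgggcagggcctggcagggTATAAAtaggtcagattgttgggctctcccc
S100a6 (chr3:90612644-90612893, plus strand): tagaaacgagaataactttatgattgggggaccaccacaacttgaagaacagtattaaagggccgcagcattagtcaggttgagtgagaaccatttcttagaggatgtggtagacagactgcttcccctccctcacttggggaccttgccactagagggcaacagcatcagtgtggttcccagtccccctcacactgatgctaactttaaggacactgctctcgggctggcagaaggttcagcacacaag
Tmsb4x (chrX:167209219-167209468, minus strand): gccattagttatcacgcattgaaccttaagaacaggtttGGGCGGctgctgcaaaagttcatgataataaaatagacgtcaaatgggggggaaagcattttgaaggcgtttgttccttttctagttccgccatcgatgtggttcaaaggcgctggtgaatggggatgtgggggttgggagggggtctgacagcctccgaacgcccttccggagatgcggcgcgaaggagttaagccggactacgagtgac
Vim (chr2:13574061-13574310, plus strand): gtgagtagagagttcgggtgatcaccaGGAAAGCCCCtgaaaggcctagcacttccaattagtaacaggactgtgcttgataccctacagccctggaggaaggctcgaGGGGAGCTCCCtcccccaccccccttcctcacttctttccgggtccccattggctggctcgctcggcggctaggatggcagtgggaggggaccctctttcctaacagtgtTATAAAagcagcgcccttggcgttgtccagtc
The TATA box was found in 2 of the 8 genes, S100a4 and Vim, at 31 and 32 bases before the start, and in 12.4% of all 32851 promoters of the table. A GC box stood in 5 of the 8 (Tmsb10, with 3 listed starts, was counted once) and in 32.7% of all promoters, and an AP-1 motif in S100a11 alone and in 6.75% of all. The kappaB motif was present in Vim and Lgals3, against 7.25% of all promoters, and none of the 8 held a CArG box, which 1.47% of all did. The S100a6 window held none of the 5 motifs. These matches describe the letters of the windows only.

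Lsp1 encodes leukocyte-specific protein 1, which binds actin filaments in leukocytes (chromosome 7, 142460809 to 142494867, plus strand, GRCm38). In CTL mice 174, 175, 177, 178 and 179, Lsp1 stood at 864, 367, 575, 877 and 451 CPM in tdT- cells and at 161, 90.1, 185, 129 and 121 CPM in tdT+ cells. In LPS mice 54, 56, 59, 60 and 61, the values were 190.2, 99.8, 113, 123 and 155 CPM in tdT- cells and 16.0, 10.6, 24.5, 9.30 and 14.6 CPM in tdT+ cells. Every tdT+ library lay below every tdT- library of the same treatment, and the tdT+ CTL and tdT- LPS groups, at 137 ± 36.9 and 136 ± 36.4 CPM (mean ± SD, n = 5 each), overlapped. The log2 difference between the libraries of a mouse came to -2.15 ± 0.45 without LPS and to -3.21 ± 0.60 with LPS (mean ± SD, n = 5 each). Lsp1 was the only member whose mean difference was larger with LPS than without by more than 1 log2 unit, and this change was not tested, because the members were chosen by the differences it compares.

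The beta-thymosins bind monomeric actin. Tmsb4x (chromosome X, 167207093 to 167209315, minus strand) stood at 24565, 20329.7, 32585, 31830.2 and 19163 CPM in tdT- CTL libraries, in the mouse order given above, and at 13964, 14475, 12823, 13565 and 13426 CPM in tdT+ CTL libraries. With LPS it was at 7240.3, 4673, 4199, 5816 and 4579.7 CPM in tdT- and at 3078, 2324, 2653, 2988 and 2039.8 CPM in tdT+ libraries. All 4 groups were separate from each other, in the order tdT- CTL, tdT+ CTL, tdT- LPS and tdT+ LPS. The difference per mouse, -0.88 ± 0.40 log2 units in CTL and -1.01 ± 0.22 in LPS mice, was the smallest of the set in CTL mice. Tmsb10 (chromosome 6, 72957347 to 72958748, minus strand) ranged over 127 to 398 CPM in tdT- CTL, 31.9 to 51.6 CPM in tdT+ CTL, 30.4 to 63.3 CPM in tdT- LPS and 18.7 to 24.7 CPM in tdT+ LPS libraries. Its mean difference was -2.64 ± 0.65 in CTL and -1.11 ± 0.51 in LPS mice. Thymosin genes have processed copies elsewhere in the genome, and how reads shared with them were counted is not given in the sources used here.

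The 4 S100 genes of the set lie on chromosome 3 in 2 pairs, S100a4 and S100a6 at 90603771 to 90606045 and 90612882 to 90624181, and S100a11 and S100a10 at 93520488 to 93526287 and 93555080 to 93564643, all on the plus strand. S100a4 binds non-muscle myosin, S100a6 is also known as calcyclin, S100a10 is the annexin A2 partner p11, and S100a11 binds annexin A1. The pairs did not have the same pattern. S100a6 stood at 542, 93.2, 303, 369.5 and 321 CPM in tdT- CTL and at 6.004, 22.5, 31.4, 12.5 and 15.9 CPM in tdT+ CTL libraries. With LPS it was at 93.7, 46.9, 36.5, 51.1 and 36.2 CPM in tdT- and at 7.47, 10.4, 7.52, 10.1 and 4.03 CPM in tdT+ libraries. The tdT+ and tdT- ranges did not overlap in either treatment, and the mean log2 difference of -4.19 ± 1.66 in CTL mice was the largest of the set. It ranged from -6.46 in mouse 174 to -2.04 in mouse 175. With LPS it was -2.69 ± 0.64.

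S100a4 was measured at low counts. Its CTL libraries held 68.1, 9.77, 52.0, 105 and 47.9 CPM in tdT- and 2.43, 2.97, 2.08, 7.13 and 3.37 CPM in tdT+ cells. In LPS mice it was at 9.05, 3.06, 3.99, 2.30 and 1.87 CPM in tdT- and at 1.06, 0.330, 0.348, 0.156 and 0.624 CPM in tdT+ cells, the latter resting on 2 to 14 counts per library. The differences were -3.70 ± 1.21 log2 units in CTL and -2.56 ± 0.69 in LPS mice. S100a4 overlaps a gene model on the same strand, Gm42674, which was not analysed here.

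S100a10 followed another course. It stood at 426, 83.2, 138, 320.1 and 158 CPM in tdT- CTL and at 57.0, 54.8, 65.7, 78.0 and 68.0 CPM in tdT+ CTL libraries. With LPS it was at 154, 98.9, 151, 173 and 119 CPM in tdT- and at 110.5, 84.7, 163, 105 and 85.1 CPM in tdT+ libraries. The populations were thus separate in CTL mice and overlapped in LPS mice, with mean differences of -1.57 ± 0.91 and -0.36 ± 0.31 log2 units, and in mouse 59 the tdT+ library was the higher by 0.11. S100a11 ranged over 45.0 to 199 CPM in tdT- CTL, 25.4 to 40.4 CPM in tdT+ CTL, 88.2 to 157 CPM in tdT- LPS and 46.8 to 69.8 CPM in tdT+ LPS libraries, with mean differences of -1.79 ± 0.75 and -0.89 ± 0.31. Its tdT+ and tdT- ranges were separate in both treatments.

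Crip1, a small LIM-domain protein (chromosome 12, 113146316 to 113153879, plus strand), stood at 845, 227, 534, 666 and 491 CPM in tdT- CTL and at 188, 154, 182, 162 and 121 CPM in tdT+ CTL libraries. With LPS it was at 96.7, 54.9, 62.9, 72.2 and 32.0 CPM in tdT- and at 19.1, 15.8, 17.7, 24.1 and 15.4 CPM in tdT+ libraries. All 4 groups were separate, and the difference per mouse was about as large with LPS, -1.71 ± 0.47 log2 units, as without, -1.67 ± 0.66. Vim, the gene of the intermediate filament protein vimentin (chromosome 2, 13573927 to 13582826, plus strand), was at 444, 159.8, 193, 532 and 312 CPM in tdT- CTL and at 108, 107, 94.1, 145 and 88.8 CPM in tdT+ CTL libraries. It was at 209, 189, 250.3, 287 and 218 CPM in tdT- LPS and at 142, 166, 240.2, 236 and 142 CPM in tdT+ LPS libraries. The tdT+ libraries were separate from tdT- in CTL mice only, with differences of -1.47 ± 0.63 in CTL and -0.34 ± 0.24 in LPS mice. Lgals3, which encodes galectin-3 (chromosome 14, 47367751 to 47386160, plus strand), ranged over 128 to 743 CPM in tdT- CTL, 96.2 to 142 CPM in tdT+ CTL, 80.8 to 212 CPM in tdT- LPS and 48.8 to 95.1 CPM in tdT+ LPS libraries. Its populations overlapped in both treatments, and its differences were -1.76 ± 1.01 and -0.59 ± 0.77.

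**Figure D2:**
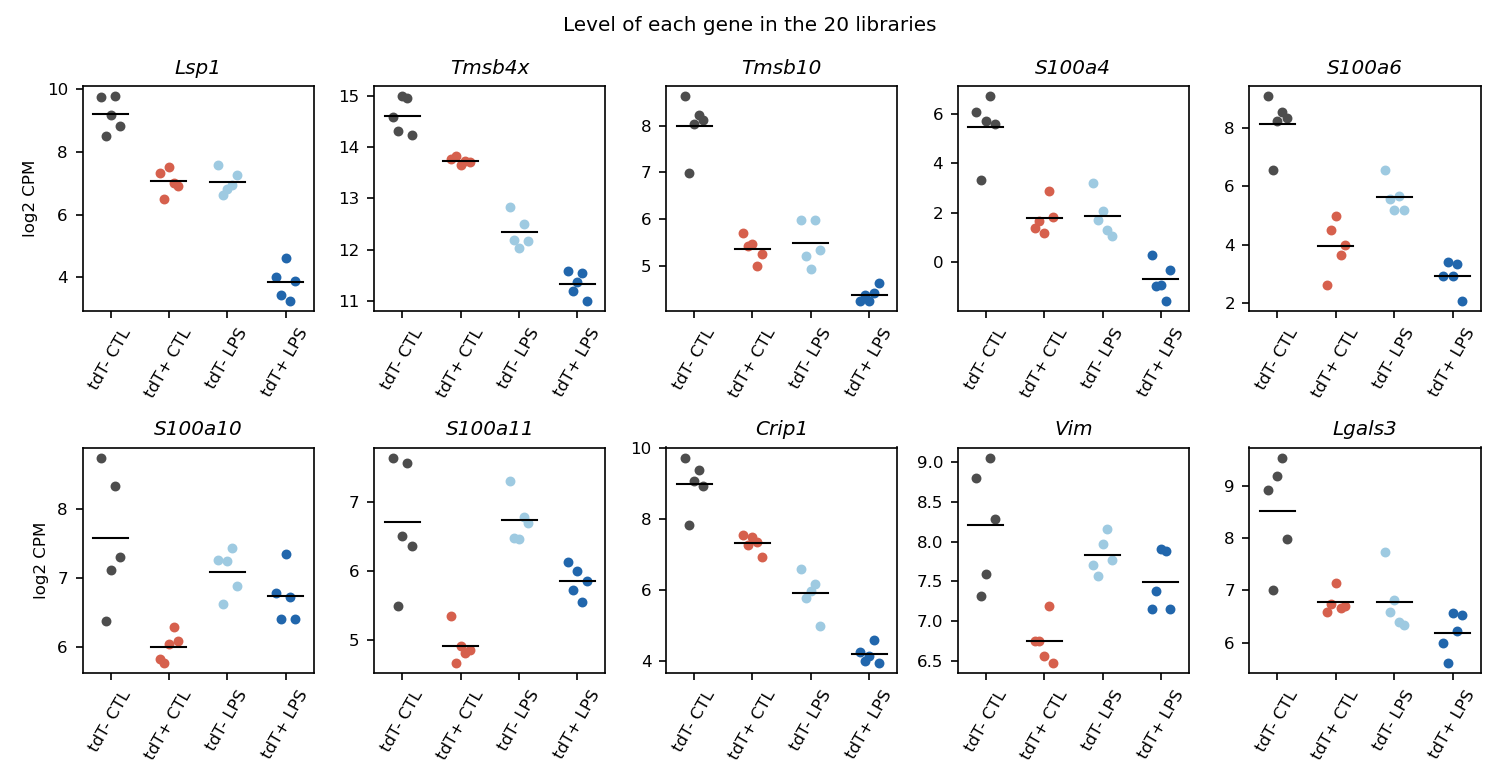
Level of the 10 genes (y axis, log2 CPM, with a separate scale for each gene) in the 4 groups of 5 libraries (points, 1 per library) with the group mean as a line. The tdT- CTL points of S100a4 range from 9.77 to 105 CPM, and the LPS points of Lsp1, Tmsb4x and Crip1 lie below the CTL points of the same population.

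Levels were compared between genes only per length. Per kilobase of exon, Tmsb4x was at 18742 CPM in tdT- CTL libraries on average, and the other 9 genes were at 69.2 (Vim) to 242 (Crip1). In tdT+ LPS libraries Tmsb4x was at 1908 CPM per kilobase, followed by S100a11 at 114 and S100a10 at 90.5, and S100a4 was lowest at 0.861.

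As a set, all 10 genes were lower in tdT+ than in tdT- cells in each of the 5 CTL mice, which held for 3.74% of all tested genes, and 8 were so in each of the 5 LPS mice (4.73% of all genes). The 8 genes were lower in all 10 mice, against 0.788% of all genes and 1.75% of those whose log2 CPM averaged 4 or more, of which 102 of 5823 did so, 7 of them members. The exceptions were S100a10 in mouse 59 and Lgals3 in mouse 61, where the difference was 0.19. Every tdT+ library lay below every tdT- library for 9 genes in CTL mice (1.42% of all genes) and for 7 in LPS mice (1.15%). At an adjusted p under 0.05 and a change above 1 log2 unit in edgeR, 9 members were lower in tdT+ CTL (1.27% of all genes) and 4 in tdT+ LPS cells (0.0301%). The first count was 3 (Lsp1, Tmsb10 and S100a6) when the 10 CTL libraries were fitted alone. The second was 2 (Lsp1 and Tmsb4x) with the mouse as replicate block and 1 to 4 without each mouse in turn. The members were chosen by these contrasts, so nothing is read from these counts. The median of the members' mean differences was -1.77 in CTL and -1.06 in LPS mice, and the median over all tested genes was 0.46 and 0.011.

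**Figure D3:**
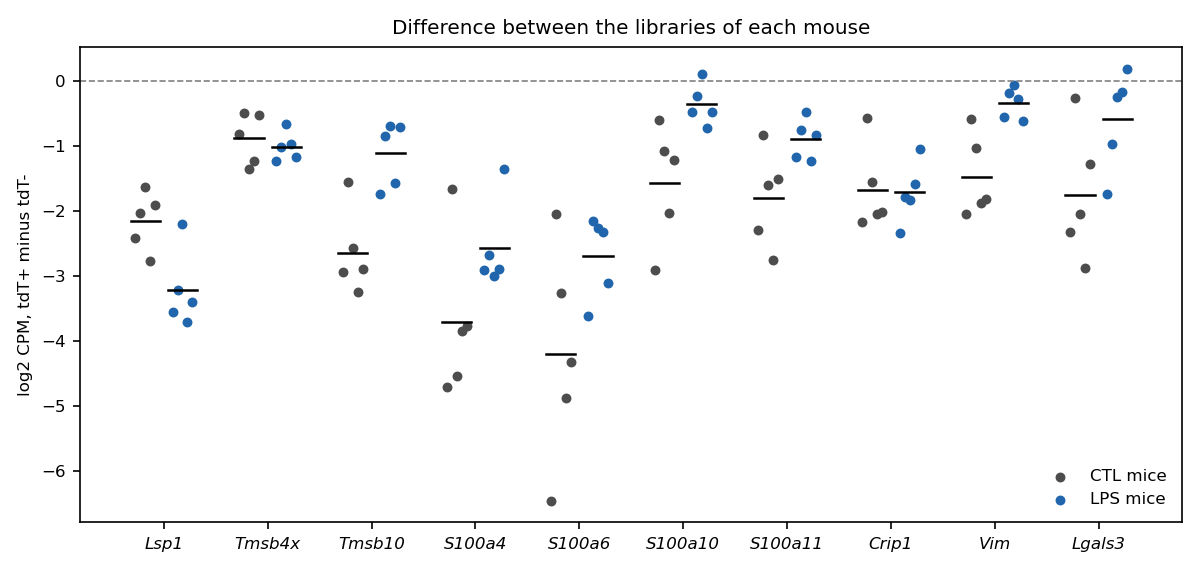
Difference in log2 CPM, tdT+ minus tdT-, between the libraries of each mouse (points) for the 10 genes, CTL mice in grey and LPS mice in blue, with the mean of 5 mice as a line. All CTL points lie below 0, and among LPS points those of S100a10 in mouse 59 and Lgals3 in mouse 61 lie above it.

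The mice differed in the size of this gap. Among CTL mice, mouse 175 had the smallest drop in 9 of the 10 genes, with a median member difference of -0.71, while mouse 174 had the largest in 5 and mouse 178 in 4, with medians of -2.37 and -2.76. Among LPS mice, mouse 54 had the largest drop in 5 genes (median -1.74) and mouse 59 the smallest in 6 (median -0.67). In the other mice the medians were -1.61 (177) and -1.85 (179) in CTL, and -0.99 (56), -1.40 (60) and -0.94 (61) in LPS. The dendritic cell markers of the tdT- library summed to 3537, 727, 1365, 1356 and 866 CPM in CTL mice 174, 175, 177, 178 and 179, and to 845, 440, 306, 418 and 636 CPM in LPS mice 54, 56, 59, 60 and 61. The orders of sums and median gaps matched in part. Mouse 175 had the lowest sum and the smallest gap of the CTL mice. Of the LPS mice, mouse 54 had the highest sum and the largest gap, and mouse 59 the lowest and the smallest. Mice 177 and 178, however, had nearly equal sums and medians of -1.61 and -2.76. Mouse 61 had a higher sum than mouse 60 and a smaller gap. The part of these cells in the result was not tested. Mice 174 and 179 had the tdT- libraries with the highest dendritic cell and fibroblast sums, respectively. In the remaining 3 CTL mice the mean differences ran from -3.39 for S100a6 to -1.02 for Tmsb4x. That all 10 genes were lower in tdT+ in these 3 mice follows from the 5 CTL mice and is no further check. The tdT- libraries of these 3 mice had dendritic cell sums of 727 to 1365 CPM, also above those of all tdT+ CTL libraries.

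The effect of LPS was tested on the sum of both libraries of a mouse, 5 LPS against 5 CTL mice. This sum does not set tdT+ against tdT- cells, but it is made of the same libraries that chose the members. That choice favoured genes with high counts in tdT- libraries, those of CTL mice among them, so the test is not independent of it. A gene is said to have risen or fallen where the adjusted p was under 0.05 and the change above 1 log2 unit. Of the 10 genes, 7 fell with LPS and none rose, against 6.49% of all tested genes that fell and 6.88% that rose (edgeR quasi-likelihood test, Benjamini-Hochberg adjustment). The genes that fell were Lsp1, both thymosins, S100a4, S100a6, Crip1 and Lgals3, and those that did not pass the test were S100a10, S100a11 and Vim. In 6 of the 10, every LPS mouse lay below every CTL mouse, as in 7.53% of all genes, and in none did every LPS mouse lie above, as in 10.7%. Over all genes, the tdT- library gave 38.0% to 52.5% of a CTL mouse's counts and 40.8% to 52.4% of an LPS mouse's. The shares of single members were not the same. In CTL mouse 174, S100a6 had 3575 counts in the tdT- and 37 in the tdT+ library, and Tmsb4x had 161898 and 86048. Where most counts of a gene came from tdT- libraries, its tested fall mainly describes those libraries.

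Tmsb4x stood at 20466, 17487, 22457, 21405 and 15580.3 CPM in the CTL mice and at 5172, 3517, 3505, 4339 and 3105 CPM in the LPS mice. The groups were far apart, and the mean fell from 19479 ± 2859.9 to 3927 ± 828 CPM (SD, n = 5 each), 4.96-fold (log2 fold change -2.31 ± 0.16, SE, edgeR adjusted p = 1.31e-06). Lsp1 stood at 552, 228, 375, 468 and 243 CPM in CTL and at 105, 56.8, 72.0, 64.4 and 72.7 CPM in LPS mice. It fell 5.03-fold without overlap (log2 fold change -2.33 ± 0.28, edgeR adjusted p = 0.000112). Crip1 stood at 555, 191, 353, 388 and 259 CPM in CTL and at 58.6, 35.9, 42.1, 47.2 and 22.4 CPM in LPS mice, an 8.47-fold fall without overlap (log2 fold change -3.08 ± 0.33, edgeR adjusted p = 4.64e-05). S100a6 stood at 298, 57.7, 163, 176 and 129 CPM in CTL and at 51.5, 29.2, 23.1, 29.9 and 17.4 CPM in LPS mice. The lowest CTL mouse, 175, was close to the highest LPS mouse, 54, and the fall was 5.46-fold (log2 fold change -2.45 ± 0.41, edgeR adjusted p = 0.00149).

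Tmsb10 fell from 152 ± 57.7 to 33.5 ± 7.37 CPM (log2 fold change -2.18 ± 0.28, edgeR adjusted p = 0.000198) and S100a4 from 28.5 ± 17.4 to 2.30 ± 1.65 CPM (log2 fold change -3.63 ± 0.65, edgeR adjusted p = 0.00236). Neither gene had mice that overlapped between treatments. Lgals3 fell from 268 ± 122 to 96.7 ± 26.7 CPM (log2 fold change -1.47 ± 0.33, edgeR adjusted p = 0.00873), and its mice overlapped, since CTL mouse 175 stood at 118 and LPS mouse 54 at 139 CPM. Without mice 174 and 179 the same 7 genes fell.

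Markers of other cells moved with LPS as well. Of the 9 dendritic cell markers 4 fell and none rose, with a median log2 fold change of -2.80. Kmo, 1 of the 4, averaged 87.7 CPM in tdT+ CTL and 6.49 CPM in tdT+ LPS cells. The summed markers of tdT+ libraries did not overlap between treatments, whereas those of tdT- libraries did. The makeup of the tdT- sum was not the same in the treatments. Cd209a fell (log2 fold change -4.86 ± 0.77, edgeR adjusted p = 0.000983), from 1228 to 26.8 CPM on average in tdT- cells, while Ccr7 averaged 46.3 CPM in tdT- CTL and 401 CPM in tdT- LPS cells and did not pass the test (log2 fold change 3.07 ± 1.23, edgeR adjusted p = 0.11). Of the 10 fibroblast markers 3 fell, Col1a1, Mgp and Gsn, and none rose, with a median of -1.45, and the summed markers overlapped between treatments in both populations. Of the 14 macrophage markers 7 fell and 2 rose. Of the 10 monocyte markers, by contrast, 3 rose (Hp, Vcan and Fn1) and 1 fell (Ccr2), with a median of 1.56. Their sums did not overlap between treatments in tdT- libraries and did in tdT+ libraries. Hp, Vcan and Fn1 were at or under 3 counts in 7, 9 and 4 of 20 libraries. Of the 10 neutrophil markers 3 rose and 1 fell. These markers were named after their values were seen, and the part of each cell type in the falls of the members was not tested.

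With the mouse as a replicate block in voom, 5 of these 7 calls remained. Tmsb4x then had a log2 fold change of -1.87 (limma adjusted p = 0.871) and S100a6 of -1.76 (limma adjusted p = 0.0571). The voom weights of Tmsb4x spanned 646 to 2.13e+12 across libraries. In limma-trend on log2 CPM with the same block, chosen after these weights were seen, the 7 calls held, with log2 fold changes of -2.34 (limma adjusted p = 5.29e-12) for Tmsb4x and -1.76 (limma adjusted p = 0.00159) for S100a6.

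S100a10 stood at 261, 69.3, 101, 186 and 102 CPM in CTL and at 131, 91.1, 158, 137 and 99.5 CPM in LPS mice (log2 fold change -0.22 ± 0.33, edgeR adjusted p = 0.685). S100a11 stood at 129, 35.3, 59.5, 101 and 48.4 CPM in CTL and at 114, 71.3, 77.5, 77.0 and 76.9 CPM in LPS mice (log2 fold change 0.16 ± 0.33, edgeR adjusted p = 0.771). Vim stood at 296, 134, 142, 317 and 172 CPM in CTL and at 175, 176, 248, 259 and 174 CPM in LPS mice (log2 fold change -0.041 ± 0.27, edgeR adjusted p = 0.933). For all 3 genes the LPS mice lay within the range of the CTL mice, which was 35.3 to 129 CPM for S100a11.

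The populations were then looked at apart, as a description, because each is 1 side of the contrasts that chose the members. In tdT- cells, 7 members met the call threshold as lower with LPS (4.27% of all genes) and none as higher (7.2%). In tdT+ cells, 4 did as lower (2.52%) and none as higher (3.37%). With the mouse as replicate block in voom Tmsb4x no longer met the threshold in either population, which left 6 and 3, and in limma-trend with the block the counts were 7 and 4. In tdT+ cells S100a4 did not meet it without mouse 178, 56, 59, 60 or 61. The log2 fold change of Crip1 was -3.12 ± 0.33 (SE) in tdT- and -3.13 ± 0.33 in tdT+ cells, and that of Tmsb4x was -2.28 ± 0.16 and -2.38 ± 0.16. Lsp1 was at -2.20 ± 0.31 in tdT- and -3.19 ± 0.33 in tdT+ cells. S100a6, by contrast, was at -2.62 ± 0.47 in tdT- and -1.16 ± 0.46 in tdT+, and Tmsb10 was at -2.55 ± 0.32 and -1.003 ± 0.31. S100a10, S100a11 and Vim had values below 0 in tdT- cells, -0.70 ± 0.35, -0.14 ± 0.35 and -0.51 ± 0.29, and above 0 in tdT+ cells, 0.76 ± 0.35, 0.93 ± 0.36 and 0.77 ± 0.29, and none of these met the threshold. Whether LPS acted differently in the populations was not tested for the members.

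**Figure D4:**
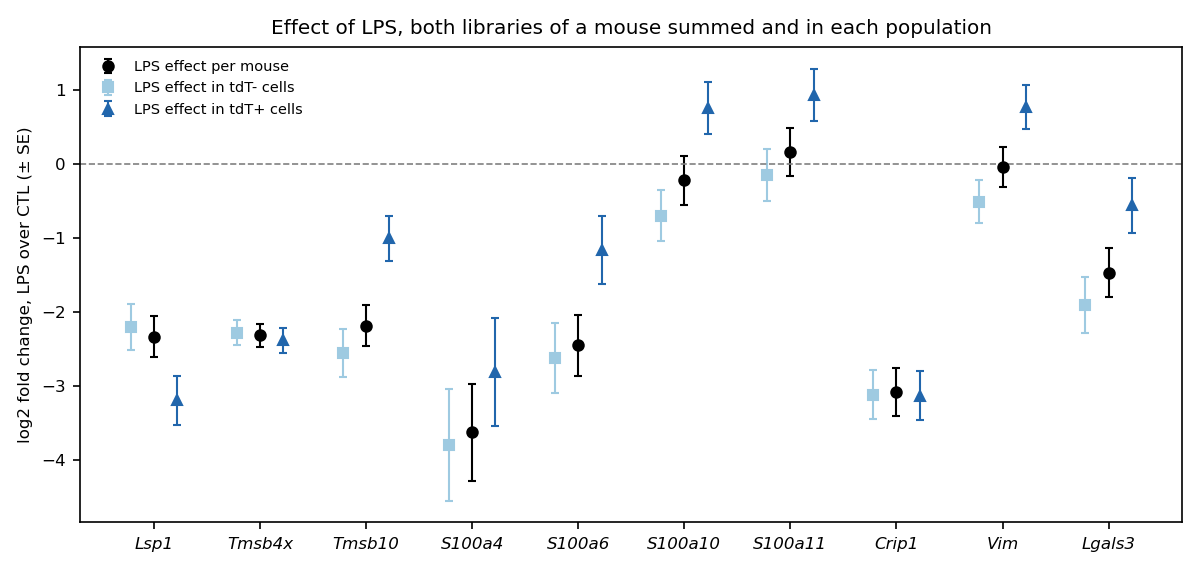
Log2 fold change of LPS over CTL (y axis, ± SE) for the 10 genes, for both libraries of a mouse summed (black circles, the tested effect) and in tdT- (light squares) and tdT+ cells (dark triangles) apart. Crip1 and Tmsb4x have nearly the same value in each, while S100a10, S100a11 and Vim lie on either side of 0 in the populations.

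Related genes came from 5 lists of the same families, without the members. In the thymosin and S100 family, 1 of 9 tested genes rose and 2 fell. S100a8, one chain of calprotectin, rose from 5.04 ± 5.30 to 296 ± 172 CPM (mean ± SD per mouse, log2 fold change 5.86 ± 0.84, edgeR adjusted p = 0.000474), while S100b, with a log2 fold change of -4.38 ± 0.71, and S100a1, with -1.45 ± 0.26, fell (edgeR adjusted p = 0.00121 and 0.002). S100a8 is also on the neutrophil list, which summed to 444 to 1077 CPM in tdT- LPS and to 512 to 1172 CPM in tdT+ LPS libraries. These sums include S100a8 itself, at 291 and 309 CPM on average. Csf3r averaged 205 and 272 CPM, Mmp8 98.0 and 103 CPM, and Mmp9 91.5 and 220 CPM. Ly6g, S100a9, Cxcr2, Camp, Ltf and Ngp averaged at most 2.5 CPM in either LPS group. The part of neutrophils in the rise of S100a8 was not tested. S100b was at or under 3 counts in 6 of 20 libraries. Among annexins and S100 partners, 1 of 13 rose and 4 fell. Anxa6 rose from 157 ± 40.9 to 413 ± 29.8 CPM, and Anxa5, Ahnak and Anxa3 fell, with log2 fold changes of -1.11 ± 0.14, -1.62 ± 0.33 and -1.73 ± 0.40. Anxa2, which pairs with S100a10 in a heterotetramer and was picked after its values were seen, did not pass the test (log2 fold change 0.38 ± 0.25, edgeR adjusted p = 0.319). It averaged 274 CPM in tdT- and 80.5 CPM in tdT+ cells of CTL mice, 307 CPM in tdT- and 146 CPM in tdT+ cells of LPS mice, and was lower in tdT+ in all 10 mice. Anxa1, the gene of the S100a11 partner and also picked after its values were seen, fell (log2 fold change -1.09 ± 0.29, edgeR adjusted p = 0.0238).

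The galectin list held 5 other tested genes. Of these, Lgals3bp, which encodes a ligand of galectin-3 and not a galectin, rose from 418 ± 157 to 2052 ± 161 CPM (log2 fold change 2.30 ± 0.21, edgeR adjusted p = 1.46e-05). Lgals1 fell from 319 ± 55.1 to 114 ± 28.8 CPM (log2 fold change -1.49 ± 0.21, edgeR adjusted p = 0.000382). In the list of LIM and intermediate filament genes, 2 of 18 rose and 4 fell. Pdlim7, a PDZ and LIM scaffold, and Plec, the linker plectin, had log2 fold changes of 3.31 ± 0.50 and 1.96 ± 0.57, and Syne2, a nuclear envelope linker, Csrp1 and Fhl1 had -6.09 ± 1.17, -1.43 ± 0.30 and -2.26 ± 0.67. Syne2 was at or under 3 counts in 10 of 20 libraries.

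Of the 54 genes of actin assembly and turnover, 10 rose and 2 fell. A further 14 were higher and 2 lower at an adjusted p under 0.05 with a change of at most 1 log2 unit, and 26 did not pass the test. Among the 14, picked after their values were seen, were the actin-severing cofilin (Cfl1, log2 fold change 0.98 ± 0.11, edgeR adjusted p = 5.01e-05) and the Arp2/3 subunit Actr3 (log2 fold change 0.85 ± 0.12, edgeR adjusted p = 0.000292). Tropomyosin 4 (Tpm4), moesin (Msn) and Coro1c rose, with log2 fold changes of 1.43 ± 0.14, 1.28 ± 0.14 and 1.31 ± 0.15, and the filament-severing gelsolin (Gsn, also on the fibroblast list) and Tpm1 fell, with -2.09 ± 0.23 and -1.67 ± 0.25. The median log2 fold change was 0.34 over these 54 genes and -0.060 over all tested genes. Actb, the gene of beta-actin, picked after its values were seen, went from 3653 ± 863 to 3500.2 ± 320.1 CPM (log2 fold change -0.062 ± 0.15, edgeR adjusted p = 0.816). Of the 54 genes, 6 were lower in tdT+ in all 10 mice.

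**Figure D5:**
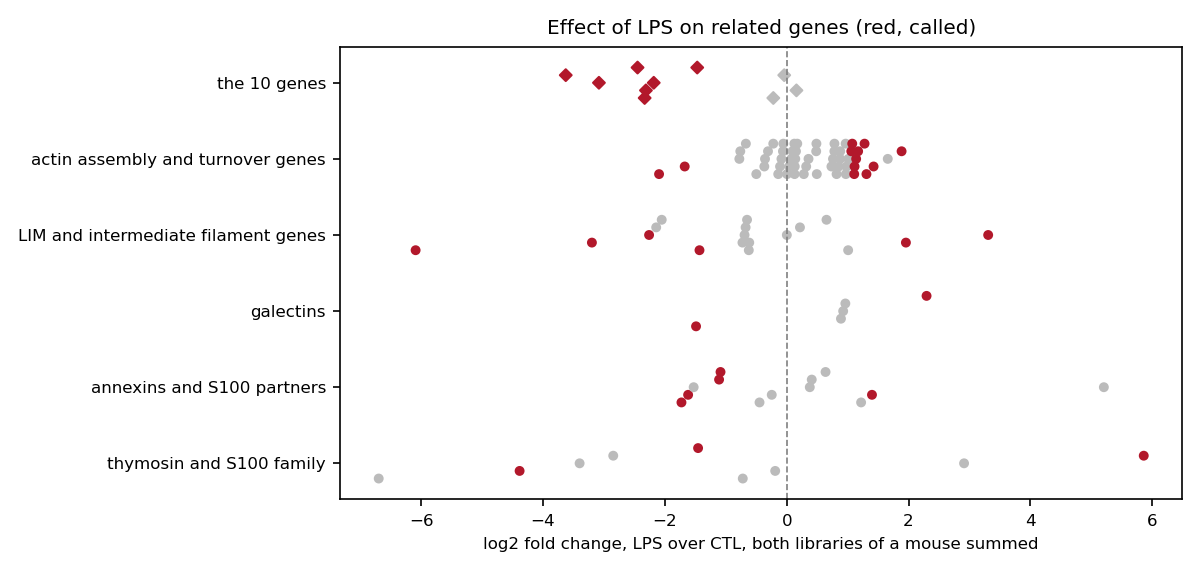
Log2 fold change of LPS over CTL (x axis, both libraries of a mouse summed) for the non-member genes of 5 lists (circles) and for the 10 genes (diamonds), red where the gene met the call threshold. Of the 10 genes 7 are red on the left, and of the 54 actin genes 10 are red on the right and 2 on the left.

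The genes most like 3 of the members were found by the root mean square difference of log2 CPM, each gene centred on its mean over the 20 libraries, among 5814 non-member genes whose log2 CPM averaged 4 or more. For Lsp1 the nearest was Ccr2, the chemokine receptor gene whose promoter drives the label, at 0.83, followed by Gpr132 (1.09) and Tspan13 (1.11). Ccr2 averaged 615 ± 181 CPM in tdT- and 277 ± 112 CPM in tdT+ libraries of CTL mice, and 70.8 ± 14.1 CPM in tdT- and 15.6 ± 5.96 CPM in tdT+ libraries of LPS mice (SD, n = 5 each). For Tmsb4x the nearest were Ptms (0.34), which encodes parathymosin, Atp5if1 (0.38) and Lst1 (0.41). For S100a6 they were Rps12 (1.23), H2az1 (1.29) and Gpr132 (1.30). Among the members, Vim and S100a10 were closest, at 0.27, and S100a11 lay at 0.40 from S100a10 and at 0.47 from Vim, while S100a4 and Vim were farthest apart, at 2.11. These distances share the 20 libraries and the differences that chose the members, and are given as a description.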

How the data were processed

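The deposited table held raw counts per gene of 20 libraries, made by the authors from poly(A) RNA of sorted cells with a low-input SMART-Seq kit that does not mark strand and has no molecular identifiers. Per the labels' processing notes, bcl2fastq 2.20, STAR 2.7.11a, featureCounts 2.0.6 and DESeq2 1.46.0 were used, and which genome build was used for these files is not given in the sources used here. PCR copies are counted as reads, genes on opposite strands at 1 locus cannot be told apart, and reads shared with processed copies of a gene may be lost or misplaced. Lsp1 overlaps Prr33 on the opposite strand, which had at most 1 count in a library. Positions are from GENCODE M21 (GRCm38), whose exon union gave the length for values per kilobase.

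Genes with a total count under 10 were removed, leaving 16632 of 33243 (11198 had no count). CPM used TMM factors, and log2 CPM a prior count of 2. The tested comparison was edgeR 4.0.16 quasi-likelihood on counts summed over both libraries of a mouse, 5 LPS against 5 CTL mice, in R 4.3.3. The comparisons within a treatment or population came from 1 joint edgeR fit of the 4 groups. A gene was called at a Benjamini-Hochberg adjusted p under 0.05 over all tested genes and an absolute log2 fold change over 1. The fits were tried on simulated counts of unpaired libraries with less spread than these libraries have. That trial does not show how the calls hold at the spread of these data. No libraries of a group had identical counts. Alternatives were DESeq2 1.42.0 (size factors and Wald test), other filters, the mouse as replicate block (edgeR, or voom of limma 3.58.1 with an estimated correlation), smaller fits, a prior count of 0.5, and leaving out each mouse. A limma-trend fit with the block, a fit with the sex letter and a fit without mice 174 and 179 were chosen after seeing the data.

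The libraries of a mouse come from the same animal, which pairs them. Their deviations from the group means correlated at -0.0046 to 0.046 in CTL and 0.23 to 0.45 in LPS mice. Members and gene lists were chosen with earlier results of these data known. The named genes are the members, the 3 genes nearest in pattern to Lsp1, S100a6 and Tmsb4x, up to 3 genes per direction and list with the smallest p among those called per mouse, Mrc1, Csf1r, Adgre1 and Ccr2, and others are marked where they stand.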

Additional observations from a re-analysis of the deposited data

Results flagged for a closer look

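Of 60 groups of 5 values checked for a value far from the others, 2 had one, and chance gives about 1 in 20. The log2 difference of S100a4 in LPS mouse 61 was -1.35, while the other LPS mice lay between -2.99 and -2.67. It rests on 23 counts in the tdT- and 11 in the tdT+ library. The log2 CPM of Lgals3 in the tdT+ CTL library of mouse 177 was 7.15, with the other libraries of that group at 6.59 to 6.74.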

How the results depend on the processing

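In the LPS effect per mouse, 7 members were called under the alternatives run, except for 5 with the mouse as replicate block in voom, where Tmsb4x and S100a6 were lost as given above. Their log2 fold changes over the other 18 alternatives ranged from -2.43 to -2.24 for Tmsb4x and from -2.73 to -1.76 for S100a6, and the highest adjusted p among the 7 was 0.0267, for Lgals3 without mouse 60. Without each mouse in turn 7 members were called. The same 18 alternatives gave S100a10 between -0.41 and 0.12, S100a11 between -0.037 and 0.48 and Vim between -0.19 and 0.19, none called. The members lower in tdT+ CTL went from 9 to 3 when the 10 CTL libraries were fitted alone. Those lower in tdT+ LPS went from 4 to 2 with the replicate block in edgeR (Lsp1 and Tmsb4x) and to 1 to 4 without each mouse in turn. Members lower with LPS went from 7 to 6 in tdT- and from 4 to 3 in tdT+ cells with the block in voom, and numbered 3 to 5 in tdT+ cells without each mouse. The sizes of these gaps, 150 alternatives of the mean differences, moved by less than the spread between mice.

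Counts over all genes depended more on the fit. Per mouse, 2224 genes were called, 4671 with the replicate block in voom and 3369 in limma-trend. For tdT+ against tdT- in CTL mice 712 were called, 1643 by DESeq2, 7 with the 10 libraries alone and 1352 without mouse 175. In LPS mice 5 were called, 59 by DESeq2, 3 with the replicate block, 39 with the 10 libraries alone, 10 without mice 174 and 179, and 1 to 6 without each mouse. For LPS in tdT- cells 1907 were called, 4523 and 3598 with the block and 891 alone. For LPS in tdT+ cells 979 were called, 1538 by DESeq2, 1571 with the block in voom and 2262 alone. The cause was not tested. The median log2 fold change of all genes per mouse was -0.060, -0.11 with DESeq2 size factors, 0.46 in limma-trend and 0.50 in voom.

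At 2 to 14 counts per tdT+ LPS library, S100a4 is the least precise member. Depth covers counting error only, and 5 mice per group limit each test.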

Other observations

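Of the chains of calprotectin, S100a8 passed the test with LPS and S100a9 did not. S100a8 rose with LPS to 291 CPM in tdT- and 309 CPM in tdT+ cells on average, while S100a9 averaged 4.23 ± 4.08 CPM in CTL and 0.584 ± 0.522 CPM in LPS mice (edgeR adjusted p = 0.103), and was at or under 3 counts in 8 of 20 libraries. These genes were picked after their values were seen.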
